A study of Mus musculus with 3 samples.

Results

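Cathepsins and legumain are the proteases that digest proteins inside lysosomes. 10 of their genes (Ctsa, Ctsb, Ctsc, Ctsd, Ctsh, Ctsk, Ctsl, Ctss, Ctsz and Lgmn) were followed by gene name, and all 10 were found on the array, with 15 of its 41174 gene probes, among 21653 gene names compared. The samples were 3 populations of E14.1, a line of mouse embryonic stem (ES) cells, each measured on 1 one-colour array of total RNA. Day 0 was the ES cells, kept without serum on gelatin with LIF and BMP4. Day 5 was definitive endoderm, the germ layer of gut, liver and pancreas, made by seeding on collagen IV and giving activin A, without LIF or BMP4. Day 7 was early hepatic cells, made from the day 5 cells by adding BMP4 and basic FGF to the activin A for the remaining days. All 3 groups came from 1 cell line, no sorting step is described in the labels, and with 1 array per day no difference below has a replicate check, a test or a p-value. In these bulk RNA samples, more cells of a type and more RNA per cell cannot be told apart.

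Lysosomal proteases are made as inactive precursors, tagged in the Golgi with mannose 6-phosphate, carried to the acidic lysosome and activated there by removal of a propeptide. Most cathepsins are cysteine proteases of the papain fold, whereas cathepsin D is an aspartic and cathepsin A a serine protease, and legumain is a cysteine protease of another fold that cuts after asparagine. The visceral endoderm, a layer that feeds the early mouse embryo, is known for its many lysosomes and abundant cathepsins. Cystatins and stefins hold escaped cathepsins in check. The related factors Tfeb, Tfe3, Mitf and Tfec bind E-box motifs, and Tfeb, Tfe3 and Mitf are known for switching on lysosomal genes.

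The sequences behind the measurements are of 2 kinds. The array reads each transcript with probes of 60 bases, and 4 of the 15 are shown, chosen because they read coding sequence and 2 of them cover a catalytic codon. An annotation of mm9, the build of the probe positions, was not used here, so exon and UTR boundaries are not given. The Ctsk and Ctsd probes are drawn from stretches of 245 and 154 bases of genomic DNA (mm9), so each crosses an intron and reads spliced RNA. Capitals mark the codon of the catalytic histidine in the Ctsk probe and of the catalytic asparagine in the Ctsz probe, both starting at probe base 45. The Ctsz, Ctsd and Ctsa probes shown lie on chromosome 2 (174254084 to 174254143, minus strand), chromosome 7 (149562628 to 149562781, minus strand) and chromosome 2 (164664388 to 164664447, plus strand) of mm9, and the position of the Ctsk probe is given with its values.
Ctsk probe: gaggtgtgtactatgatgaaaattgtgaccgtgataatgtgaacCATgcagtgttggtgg
Ctsz probe: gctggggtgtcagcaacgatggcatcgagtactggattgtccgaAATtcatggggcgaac
Ctsd probe: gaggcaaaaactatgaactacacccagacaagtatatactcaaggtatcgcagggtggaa
Ctsa probe: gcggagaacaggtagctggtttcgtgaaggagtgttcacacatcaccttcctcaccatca

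RefSeq promoters of the build GRCm38.p6 (250 bases before to 50 bases after a start) were matched by symbol, and 10 promoters of 8 of the 10 genes were found, with none for Ctsb or Ctsh in the table used. The Ctsa, Ctsd, Lgmn and Ctsl promoters are shown because they hold E-box cores, the motif that the Tfeb family binds. Capitals mark every match, on either strand, to TCACGTGA (the core of the lysosomal CLEAR element), to its shorter forms TCACGTG and CACGTG, and in Lgmn also to TATAAA, which reads in reverse there.
Ctsa promoter, chr2:164833523-164833822 (plus strand): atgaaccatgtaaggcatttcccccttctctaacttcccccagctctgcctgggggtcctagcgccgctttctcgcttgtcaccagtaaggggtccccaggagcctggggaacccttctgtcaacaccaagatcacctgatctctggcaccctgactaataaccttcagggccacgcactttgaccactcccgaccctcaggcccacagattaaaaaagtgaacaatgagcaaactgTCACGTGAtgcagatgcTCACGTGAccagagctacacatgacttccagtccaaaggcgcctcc
Ctsd promoter, chr7:142387778-142388077 (minus strand): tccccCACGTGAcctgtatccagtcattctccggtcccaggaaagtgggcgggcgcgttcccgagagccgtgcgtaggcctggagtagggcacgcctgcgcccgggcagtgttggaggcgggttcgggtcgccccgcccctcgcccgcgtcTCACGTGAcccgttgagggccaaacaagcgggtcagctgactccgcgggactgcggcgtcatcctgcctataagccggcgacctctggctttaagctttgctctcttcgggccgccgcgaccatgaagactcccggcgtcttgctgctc
Lgmn promoter, chr12:102439043-102439342 (minus strand): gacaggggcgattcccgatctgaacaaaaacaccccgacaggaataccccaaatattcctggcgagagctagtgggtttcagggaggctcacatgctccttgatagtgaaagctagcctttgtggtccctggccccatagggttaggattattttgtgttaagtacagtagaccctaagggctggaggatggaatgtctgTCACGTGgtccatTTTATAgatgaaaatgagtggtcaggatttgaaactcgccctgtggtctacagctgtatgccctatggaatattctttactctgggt
Ctsl promoter, chr13:64370471-64370770 (minus strand): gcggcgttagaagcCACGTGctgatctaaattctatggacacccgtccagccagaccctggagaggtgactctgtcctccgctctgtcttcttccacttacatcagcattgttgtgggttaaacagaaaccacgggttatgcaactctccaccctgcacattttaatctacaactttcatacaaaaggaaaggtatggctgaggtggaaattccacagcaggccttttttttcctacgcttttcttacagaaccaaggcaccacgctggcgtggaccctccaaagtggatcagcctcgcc

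TCACGTGA was present in 2 of the 10 promoters, beside 0.974% of all 32851 promoters of the same length. The Ctsa promoter shown held it at 13 bases before the start site and again 4 bases after it. In the Ctsd promoter it began 99 bases before the start, and a second, shorter TCACGTG lay at 245 bases before it. The Lgmn promoter shown held TCACGTG at 50 bases before its start, and the Ctsl promoter held CACGTG at 236 bases before it. The shorter forms contain one another, so that their counts overlap: TCACGTG was in 3 of 10 promoters (3.77% of all) and CACGTG in 4 of 10 (7.15% of all). The AP-1 motif TGACTCA was in 0 of the 10 (5.20% of all), and TATAAA was in 2 of the 10, Ctss and Lgmn (13.6% of all). The table holds a second promoter each for Ctsa and Lgmn, and neither held any of these motifs. These are matches of letters in a fixed window. Among the 4 genes with CACGTG in a promoter shown, the log2 difference of day 7 against day 0 was 3.66 for Lgmn, 2.67 for Ctsl, 1.07 for Ctsd and 0.97 for Ctsa. Where the promoter held no CACGTG, it was 4.21 for Ctsc, 1.21 for Ctsz, at least 0.45 for Ctsk and -0.89 or lower for Ctss. Ctsh (7.35) and Ctsb (1.39) had no promoter to read. A link between motif and difference was not tested.

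Of the 10 genes, 8 were well above background on all 3 arrays (every gene but Ctsk and Ctss), and all 8 had their highest signal on day 7. Among all 18479 gene names well above background on all arrays, 23.3% were highest on day 7. The order day 0, then day 5, then day 7 held for 7 of the 8, with Ctsd the exception, and for 17.2% of all. This count depends on the processing. Ctsd differed by -0.01 log2 units on day 5 against day 0, but by 0.29 with quantile normalization and with the authors' deposited values. With the median over the probes of a gene, Ctsa differed by -0.00081. The 10 genes were chosen with earlier results of these data known. Their shares, here and in the 2-fold counts below, therefore stand beside those of all genes as description only. Of the gene spots, 71.7%, 70.9% and 71.6% were well above background on days 0, 5 and 7, and a gene was compared when its probe was so on at least 1 array. Signals below are the processed fluorescence in intensity units. Normalised log2 signals are the log2 of that signal minus the log2 of the array's 75th percentile, and differences are between these. The extraction software models the error of a bright spot as 10.0% of its signal, which is 0.14 on the log2 scale and 0.20 for a difference of 2 spots. This error stands beside the differences as a technical yardstick only, because it leaves out culture, RNA preparation and labelling.

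A gene counted as higher or lower at a 2-fold difference, 1 on the log2 scale, with the brighter spot well above background. In the comparison of day 7 with day 0, 7 of the 10 genes were called higher and 0 lower. Among all genes compared, 16.2% were called higher and 19.1% lower. The median difference over the 10 genes was 1.30 in log2 units, and that of all genes compared was -0.19. Day 5 against day 0 had 4 of the 10 at least 2-fold higher (Ctsc, Ctsh, Ctsl and Lgmn) and 0 lower, beside 16.5% and 16.1% of all genes. Their median difference was then 0.47, beside -0.11 for all genes compared. Both comparisons use the same day 0 array. Day 7 against day 5 had 5 of the 10 at least 2-fold higher (Ctsb, Ctsd, Ctsh, Ctsl and Lgmn) and 0 lower, beside 5.97% and 8.38% of all genes, with a median of 0.94 beside -0.06 for all.

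**Figure D1:**
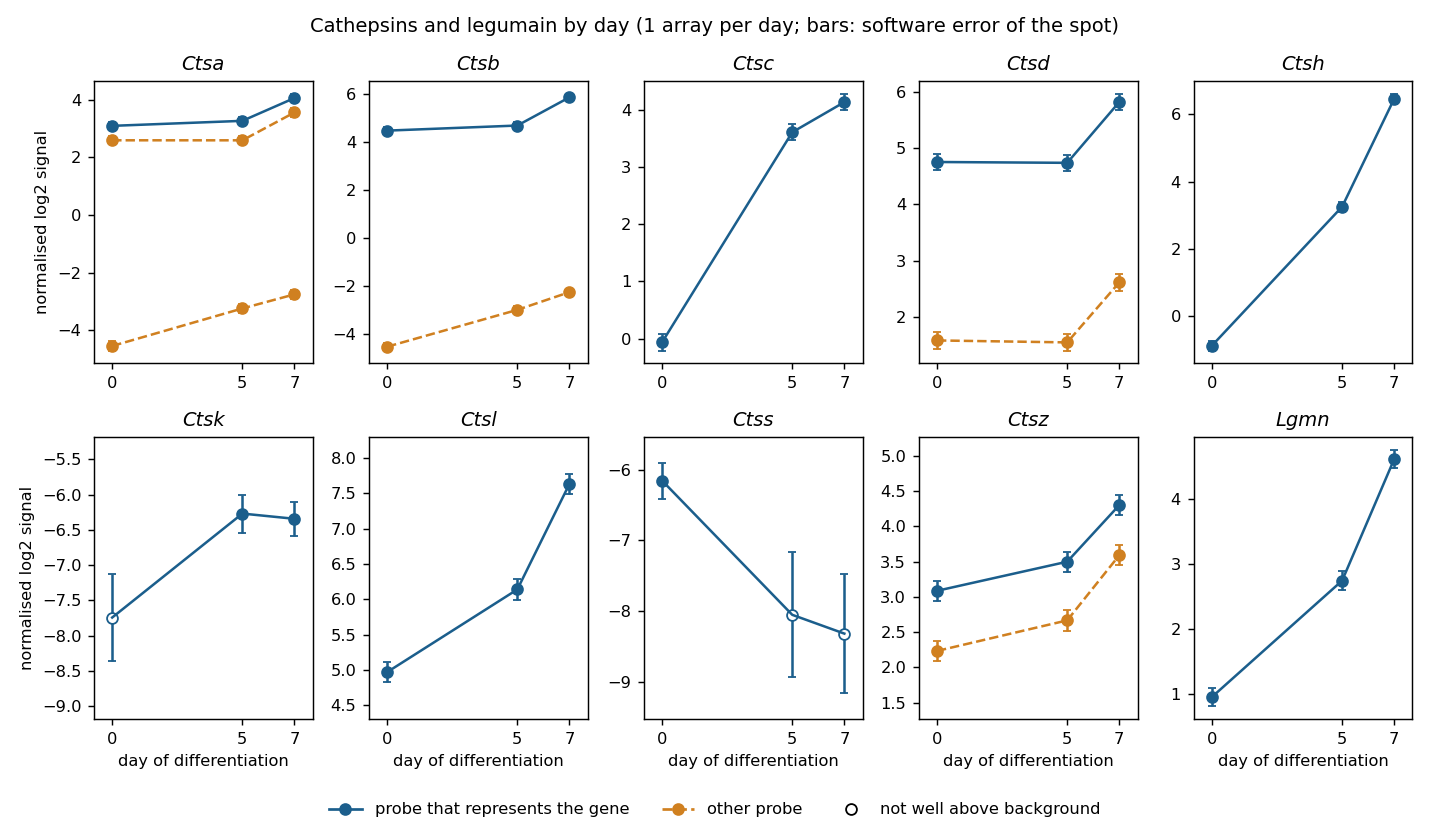
Normalised log2 signal (vertical axis, a separate scale per panel) of the 10 protease genes on days 0, 5 and 7 (horizontal axis), 1 array per day, with bars for the extraction software's error of the spot. Solid blue lines are the probe that represents the gene, dashed orange lines its other probes, and open circles signals not well above background. The day 7 point is the highest in the 8 panels other than Ctsk and Ctss, and Ctsh spans 7.35 log2 units.

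The labels were checked against their markers. All 8 ES cell markers were at least 2-fold lower and all 9 definitive endoderm markers at least 2-fold higher on both later days than on day 0. Of 10 hepatic markers, 8 were higher and 1 lower on day 7 against day 0, with Afp, the fetal albumin relative, 875-fold higher (239.6-fold with a refitted normexp background correction, an alternative chosen after seeing the data and called the refitted correction below), while Alb itself did not stand well above background there.

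Markers of other cell types were read on the same arrays. Of 14 macrophage and myeloid markers, 4 (Ptprc, Adgre1, Spi1 and Fcgr1) were not well above background on any array, and the other 10 were so on at least 1. Of the whole list, 5, 6 and 7 markers were so on days 0, 5 and 7, and its summed level was 0.234, 0.306 and 0.327 times the 75th percentile on days 0, 5 and 7. On day 7 against day 0, 3 of these markers were at least 2-fold higher and 0 lower, beside 1 and 0 with the refitted correction. The 3 were Csf1r, a growth factor receptor (3.17-fold, or 1.63-fold with that correction), Cd14, a co-receptor for lipopolysaccharide (2.03-fold, or 1.34-fold), and Lyz2, a lysozyme (at least 6.61-fold, or 2.20-fold). The other probes of Csf1r and Lyz2 did not pass 2-fold. The 8 osteoclast markers had a summed level of 0.639, 1.82 and 1.39, with 3 higher and 2 lower on day 7 against day 0. Of 20 extraembryonic endoderm markers, 17 were at least 2-fold higher and 2 lower on day 7 against day 0. All genes compared had 16.2% higher and 19.1% lower. The summed level of these markers was 141, 187 and 525 times the 75th percentile on days 0, 5 and 7. Among them Dab2, an endocytic adaptor, was 112-fold higher, and the transcription factor Tfec is on this list too. The list shares Ttr and Apoa1 with the hepatic markers. Of 15 fibroblast and mesenchyme markers, 12 were higher and 1 lower on day 7 against day 0, with summed levels of 26.9, 42.0 and 89.8. These other lists lost calls with the refitted correction too. The log2 differences of Prrx1 (fibroblast list, 0.37), Tnfrsf11a (osteoclast list, -0.84) and Thbd (extraembryonic list, -0.71) then fell under 2-fold. What part cells of any of these kinds had in the protease signals was not tested.

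Ctsh, an aminopeptidase of the papain family that also processes surfactant proteins in lung, differed the most of the 10 in every comparison. Its probe (chromosome 9, 89970828 to 89970887, mm9) read 849 units on day 0, 19569 on day 5 and 181867 on day 7. Each array was thus clearly brighter than the one before it. The gene was 163-fold higher on day 7 than on day 0 (log2 difference 7.35), and only 27 of the 21653 genes compared, 0.125%, had a larger difference. Day 5 stood 17.6-fold above day 0 and day 7 stood 9.28-fold above day 5, so that 56.3% of the log2 difference was present by day 5.

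Ctsc encodes dipeptidyl peptidase 1, which removes pairs of residues from protein ends and in leukocytes activates granzymes. Its signal was 1494 units on day 0, 25086 on day 5 and 36200.2 on day 7 (chromosome 7, 95458436 to 95458495, mm9). Most of its difference lay in the first interval: 87.5% of the log2 difference between day 7 and day 0 was present by day 5. The gene was 12.8-fold higher on day 5 and 18.5-fold higher on day 7 than on day 0, whereas day 7 exceeded day 5 only 1.44-fold.

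Lgmn, legumain, which trims other cathepsins and antigens, had 3027, 13742 and 50348 units on days 0, 5 and 7 (chromosome 12, 103632575 to 103632634, minus strand, mm9). The 2 intervals were nearly equal on the log2 scale, with 1.79 between days 0 and 5 and 1.87 between days 5 and 7. It was 12.7-fold higher on day 7 than on day 0.

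Ctsl, a broad endopeptidase of lysosomes that is secreted by many embryonic and tumour cells, read 48952 units on day 0, 144561 on day 5 and 407904 on day 7 (chromosome 13, 64465287 to 64465346, minus strand, mm9). It was 2.25-fold higher on day 5 and 6.35-fold higher on day 7 than on day 0. Here 43.9% of the log2 difference was present by day 5, and none of its 3 spots was saturated.

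Ctsb, which acts both as an endopeptidase and as a dipeptidase at the carboxyl end, had 34394 units on day 0, 52244 on day 5 and 118114 on day 7 (chromosome 14, 63761906 to 63761965, mm9). Day 5 differed from day 0 by 0.21 log2 units, beside a software error of 0.20, and the gene was 2.62-fold higher on day 7 than on day 0. Ctsz, a carboxypeptidase that takes off single residues, showed 13281, 23180.2 and 40461.8 units on days 0, 5 and 7 (chromosome 2, 174253228 to 174253287, minus strand, mm9). It was 1.33-fold higher on day 5 and 2.32-fold higher on day 7 than on day 0.

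Ctsd and Ctsa are not cysteine proteases. Ctsd, the main aspartic protease of lysosomes, read 42063 units on day 0, 54605 on day 5 and 115620 on day 7 (chromosome 7, 149561962 to 149562021, minus strand, mm9). After scaling, days 0 and 5 were alike within the software's error, with a log2 difference of -0.01, and day 7 stood 2.09-fold above day 0. Ctsa, a carboxypeptidase that also protects beta-galactosidase and neuraminidase in a complex, read 13373, 19779.8 and 34286 units (chromosome 2, 164664789 to 164664848, mm9). Its day 5 and day 0 signals also lay within the software's error (0.17), and at 1.95-fold on day 7 against day 0 it was just under the 2-fold limit. Quantile normalisation gave 1.19 on the log2 scale and the authors' deposited value table gave 1.18, both past that limit. Most of the difference thus came after day 5 in these genes. By then 15.3% of the log2 difference was present for Ctsb, 34.0% for Ctsz, -1.37% for Ctsd and 18.0% for Ctsa. These percentages depend on the processing. With the deposited table, day 5 differed from day 0 by 0.51 for Ctsb, 0.62 for Ctsz, 0.29 for Ctsd and 0.36 for Ctsa. Those of Ctsd and Ctsa were then past the software's error of 0.20. Day 7 differed from day 0 by 1.76, 1.45, 1.45 and 1.18 in that table. With the median over probes, Ctsb differed by 0.87 on day 5 and 1.83 on day 7.

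Ctsk and Ctss, adjacent genes on chromosome 3 that are best known from osteoclasts and from antigen-presenting cells, had weak signals on every array. Ctsk (95310647 to 95310891, mm9) read 7.30 units on day 0 (not well above background), 26.6 on day 5 and 25.3 on day 7. Set against the lowest signal marked as well above background on day 0, it was higher by at least 1.44-fold on day 5 and by at least 1.37-fold on day 7. These bounds, 0.52 and 0.45 on the log2 scale, shrank to 0.20 and 0.03 with the refitted correction. The combined software error of the Ctsk differences, 0.68 and 0.67, was larger than the bounds. Ctss (95360162 to 95360221, mm9) went the other way, with 22.0 units on day 0 and signals not well above background on day 5 (7.72) and day 7 (6.43). It was at least 1.53-fold lower on day 5 and at least 1.85-fold lower on day 7. On the log2 scale these Ctss bounds were -0.61 and -0.89, and -0.50 and -0.63 with the refitted correction. The software's error of these weak spots was 16.7% to 61.5% of the signal, and the probes of Ctsk and Ctss start 49515 bases apart.

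**Figure D2:**
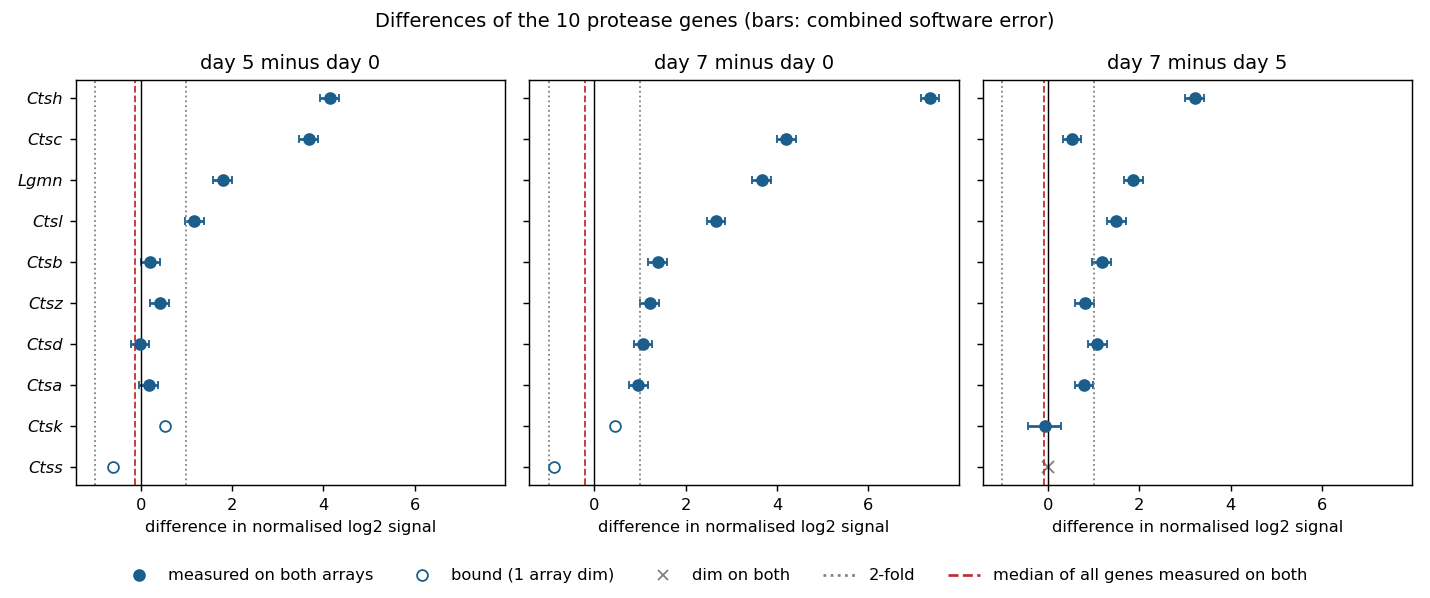
Differences in normalised log2 signal (horizontal axis) of the 10 protease genes (rows) in the 3 comparisons (panels), with bars for the combined software error. Ctsh, Ctsc, Lgmn and Ctsl lie past the 2-fold limit on day 5 against day 0, and Ctsb, Ctsd and Ctsz join them on day 7 against day 0.

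Other probes exist for 4 of the genes. For Ctsd the probe printed above had 4676, 5986 and 12538 units on days 0, 5 and 7, and its differences from day 0 were -0.03 on day 5 and 1.03 on day 7. The printed Ctsz probe gave 0.43 and 1.36 in the same comparisons, and the printed Ctsa probe -0.00081 and 0.97. The differences of these 3 coding probes departed by up to 0.17 log2 units from those of the probes that represent the genes. The remaining 2 lie downstream of their gene's main probe, 1644 bases for Ctsa and 2225 bases for Ctsb, and had low signals. The downstream Ctsa probe read 67.1, 217 and 305 units on days 0, 5 and 7, and was 3.46-fold higher on day 7 than on day 0. The downstream Ctsb probe read 67.0, 255 and 426 units and was 4.84-fold higher on day 7 than on day 0. Against day 0, both had their larger step by day 5 (1.30 and 1.54 on the log2 scale), unlike the main probes of the same genes. With the median over the probes of a gene, Ctsb fell under the 2-fold limit in day 7 against day 5 (0.96).

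The genes with the most similar course were named by the distance between profiles centred on their own mean, over 3 arrays. The candidates were 14065 of the 18479 gene names well above background on all arrays, because clone, accession, RIKEN, LOC and Gm names were left out. Ctsa, whose values span under 1 log2 unit, was not matched. Ctsh had 0 genes within 0.25 log2 units of its course, and the nearest were the transcription factor Maf (0.41) and the complement protease Masp1 (0.43). Ctsc was matched by the lysophosphatidic acid receptor Lpar6 (0.04) and by Tspan12 (0.08), with 11 genes within the same limit. Lgmn had 14 genes within it, led by Tifa (0.03) and Rab32 (0.07), and Ctsl had 25, led by Arl4c (0.08) and Fads3 (0.10). The flatter courses had more company, with 76 genes near Ctsb (Pag1 and Card19 first) and 192 near Ctsz (Rgl3 and Ebf3 first), and Cyp4x1 and S100a11 lay nearest to Ctsd. The same measure gave Usp25 and Krtcap3 for Ctsk and Nmi and Rif1 for Ctss, although the courses of those 2 rest on signals near the background. With 3 points per gene, such likeness is a description.

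Of 13 other cathepsin genes, 6 were not well above background on any array, namely the placental cathepsins Ctsj, Ctsq, Ctsr, Cts3, Cts6 and Cts8 of rodents. The other 7 had 3 genes at least 2-fold higher and 1 lower on day 7 against day 0, with a median of 0.42. The shares of all genes compared were 16.2% higher and 19.1% lower. Ctso, a little-studied papain-type cathepsin, was 16.6-fold higher on day 5 and 22.8-fold higher on day 7 than on day 0 (10.1-fold and 13.8-fold with the refitted correction). Ctsf, a cysteine protease of lysosomes, was 6.74-fold and 6.66-fold higher on those days. Ctsw, known from cytotoxic lymphocytes, was 4.08-fold lower on day 7 than on day 0 and differed by 0.0049 log2 units on day 5 against day 0. The placental Cts7 exceeded the background level of day 0 by at least 2.17-fold on day 7, a difference that shrank to 1.19-fold with the refitted correction.

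Among 6 other lysosomal peptidases, 3 were at least 2-fold higher and 1 lower on day 7 against day 0, beside 16.2% and 19.1% of all genes. Dpp7, a dipeptidyl peptidase, was 3.14-fold higher on day 7 than on day 0 and 4.25-fold higher than on day 5. Tpp1, a tripeptidyl peptidase, was 2.21-fold higher on day 7 than on day 0. Napsa, napsin A, an aspartic protease known from lung and kidney and related to cathepsin D, had the opposite direction: 64.3-fold lower on day 5 and 207-fold lower on day 7 than on day 0 (35.6-fold and 63.2-fold with the refitted correction). Cpq, a carboxypeptidase, was 6.05-fold higher on day 5 and 3.12-fold higher on day 7 than on day 0, but 1.93-fold and 1.29-fold with the refitted correction, which left 2 of the 6 peptidases past the limit upwards on day 7 against day 0.

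Of 13 listed inhibitors, 12 were on the array and 10 could be compared, and on day 7 against day 0, 7 were at least 2-fold higher and 1 was lower (median 1.28), beside 16.2% and 19.1% of all genes. With the refitted correction 5 of the 10 were higher and 1 lower. Cst3, cystatin C, the main secreted inhibitor of cysteine cathepsins, had normalised log2 signals of 3.42, 4.85 and 6.02 on days 0, 5 and 7. It was 2.69-fold higher on day 5 and 6.06-fold higher on day 7 than on day 0, so that its levels followed the day order as those of 7 proteases did. Cstb, the cytosolic stefin B, stayed within 1.47-fold in all 3 comparisons.

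Ctla2a resembles the propeptide of cathepsin L and inhibits related proteases. It was 29.4-fold higher on day 7 than on day 0 and 71.8-fold higher than on day 5 (12.0-fold and 17.3-fold with the refitted correction). Stfa1, a stefin A, was 30.2-fold higher on day 5 and 35.2-fold higher on day 7 than on day 0 (6.99-fold and 7.98-fold with the refitted correction). Its close relatives Stfa2 and Stfa3 reached at least 2.35-fold and 2.01-fold on day 7 against day 0, both under 2-fold with the refitted correction. The stefin A genes are near-identical copies, and their probes may share transcripts. The serpins on the list act mainly on serine proteases, among them cathepsin G. Serpinb1a was at least 130-fold lower on day 5 and 16.8-fold lower on day 7 than on day 0 (28.8-fold and 11.7-fold with the refitted correction). For Serpinb9 the day 7 array was higher by at least 9.80-fold (2.27-fold with that correction). Serpinb6a was 2.53-fold higher, a difference that its other probe, dim on both arrays, did not show. Cst6 was 1.57-fold lower on day 7 than on day 0, and Cst7 and Csta1 were not well above background on any array.

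**Figure D3:**
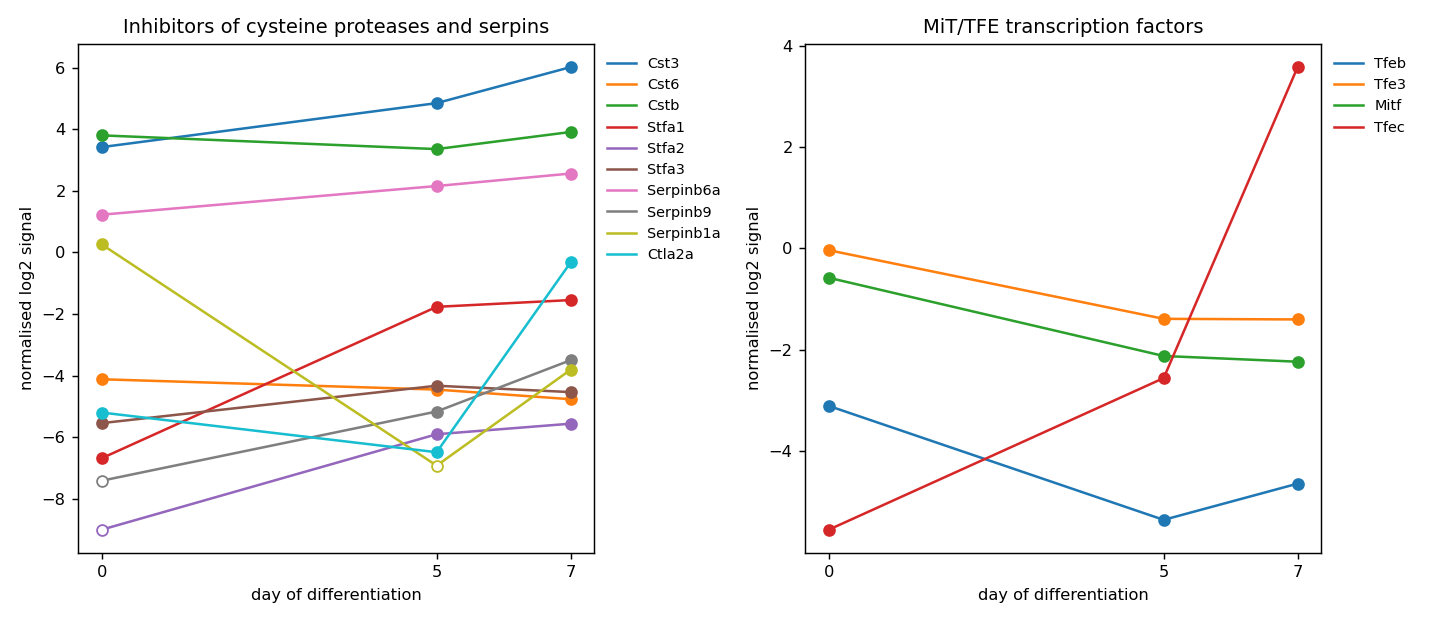
Normalised log2 signal (vertical axis) by day of differentiation (horizontal axis) of the listed protease inhibitors and of the 4 MiT/TFE transcription factors, 1 array per day and 1 line per gene, with open circles for signals not well above background. Ctla2a and Tfec climb between days 5 and 7, while Tfeb, Tfe3 and Mitf lie at least 2.55-fold lower on day 5 than on day 0.

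Of the 4 MiT/TFE factors, 3 were lower and 1, Tfec, was higher on both later days than on day 0. Of all genes compared, 16.1% were lower and 16.5% higher on day 5, and 19.1% lower and 16.2% higher on day 7. Tfeb was 4.74-fold lower on day 5 and 2.89-fold lower on day 7 than on day 0 (2.54-fold and 2.08-fold with the refitted correction). Tfe3 was 2.55-fold and 2.57-fold lower in the same comparisons, although the median over its 3 probes was -0.97 on day 5, just short of 2-fold. Mitf was 2.91-fold and 3.15-fold lower, and its other probe was lower as well. Tfec, the family member known from macrophages and visceral endoderm, was 7.93-fold higher on day 5 and 555-fold higher on day 7 than on day 0 (3.42-fold and 198-fold with the refitted correction). Compared with day 0, its other probe gave a log2 difference of -0.06 on day 5 and 4.81 on day 7, so that only the day 7 difference appeared with both probes. RNA levels do not show the activity of these factors, which is set largely by their place in the cell.

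The rest of the lysosome was read from 5 further lists. Beside them stand all genes compared, with 16.2% higher and 19.1% lower on day 7 against day 0. Of 18 lysosomal lipases, sulfatases and activators, 12 were at least 2-fold higher and 0 lower on day 7 against day 0 (median 1.32), among them Lipa, the acid lipase (6.78-fold), Arsa, arylsulfatase A (4.97-fold), and Smpd1, acid sphingomyelinase (4.15-fold). The 18 glycosidases had 6 higher and 2 lower on day 7 against day 0 (median 0.51). Naglu was 7.66-fold and Neu1, the neuraminidase that cathepsin A protects, 3.92-fold higher, whereas Manba was 3.17-fold lower. A further Naglu probe was dim on both arrays.

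Of 18 lysosomal membrane proteins, 6 were higher and 2 lower on day 7 against day 0 (median 0.69). Cd63 was 3.20-fold higher and Lamp1 1.96-fold higher, against Cd68, a macrophage-associated protein, 10.7-fold lower and Laptm5, of blood cells, at least 181-fold lower (31.6-fold with the refitted correction). The 17 vacuolar ATPase subunits compared, which acidify the lysosome, had 4 higher and 0 lower (median 0.54), beside 16.2% and 19.1% of all genes, led by Atp6v0a1 at 4.12-fold. Of the 2 other probes each of Atp6v0a1 and Manba, 1 passed 2-fold the same way. For the mannose 6-phosphate sorting route that delivers cathepsins, 2 of 13 genes were higher and 0 lower (median 0.43), a share higher that was no larger than the 16.2% of all genes. They were the receptor Igf2r, at 3.54-fold, and Sort1, at 2.93-fold, and the 3 other probes of Sort1 pointed the other way (log2 differences -0.95 to -0.36). The second receptor, M6pr, was 1.18-fold higher on day 7 than on day 5 and 1.18-fold lower on day 5 than on day 0.

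Over the 9 lists together, 44 of 111 genes compared (39.6%) passed 2-fold upwards in day 7 against day 0 and 10 (9.01%) downwards, with a median of 0.69, beside 16.2% and 19.1% of all genes. Day 5 against day 0 had 24 higher (21.6%) and 12 lower (10.8%), beside 16.5% and 16.1% of all genes. Day 7 against day 5 had 14 higher (12.6%) and 3 lower (2.70%), beside 5.97% and 8.38%. The 10 proteases had a share of 70% higher on day 7 against day 0. The proteases and the lists were both chosen with earlier results of these data known, so all these shares are given side by side only.

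**Figure D4:**
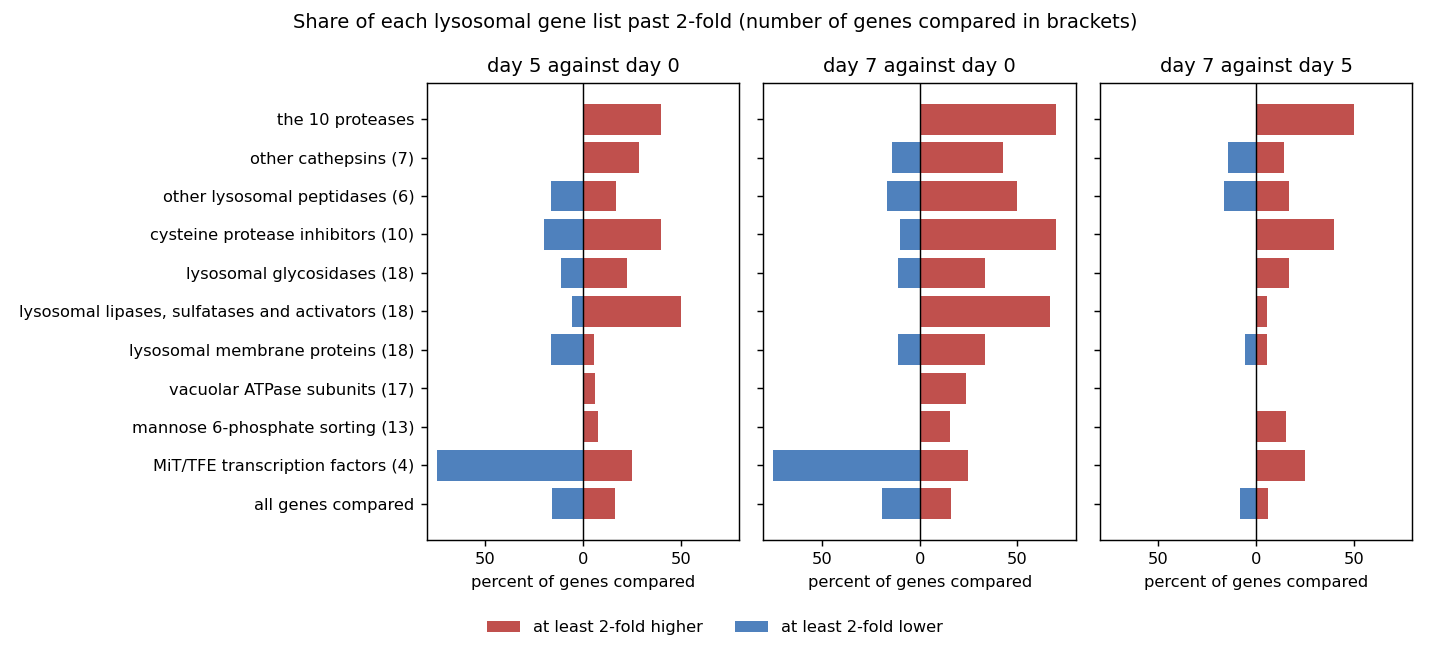
Percent of the genes compared in each lysosomal list (rows, number compared in brackets) that were at least 2-fold higher (right) or lower (left) in the 3 comparisons (panels). Lipases, sulfatases and activators had 12 of 18 genes higher on day 7 against day 0, and vacuolar ATPase subunits 4 of 17.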

How the data were processed

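Per the labels' protocols, total RNA was labelled with Cy3 and hybridised to 1 one-colour Agilent array per day. Per the file headers, the authors used Agilent Feature Extraction 10.5.1.1 and detrended each scan spatially, and probe positions are those of mm9. The deposited scanner files give linear intensity values, and their processed signal, already background-corrected, was used. The deposited value table holds log2 intensity values with the same distribution on each array; the step behind this, not given in the sources used here, stays unknown, and the table served only as an alternative.

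From the log2 processed signal, the 75th percentile of an array's 43379 gene spots was subtracted (1564, 2051 and 2053 units on days 0, 5 and 7). Control spots and outlier-marked spots (149, 104 and 131) were left out, and spots of 1 probe averaged. Of 41174 probes, 24844 were named through RefSeq accessions and 6045 through symbols in a GRCm38.p6 table, and 10285 kept the file's name. Where a gene had several probes, the one detected well above background on more arrays stood for it, then the brighter. A dim side was raised, if lower, to the array's lowest signal well above background (14.1, 18.9 and 15.6 units), which gives the folds written "at least". A gene dim on both arrays, or whose bound would change sign, was given 0.

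No test was possible with 1 array per day, and the number of arrays limits the precision. Probes printed as 10 spots had a median spot SD of 0.080, 0.076 and 0.077 log2 units. Named genes were all 10 proteases, all listed inhibitors and MiT/TFE factors. Added were the 2 nearest courses per protease whose values span at least 1 log2 unit (all but Ctsa). Of each list, genes among the 4 largest differences past 2-fold in each direction were named. M6pr, Prrx1, and cathepsins and markers named as dim, were chosen after their values were seen. A gene that the rule takes is not reported here. The proteases and lists were chosen with earlier results of these data known. Motifs were sought on both strands. Alternatives were normexp background correction (limma 3.58.1, R 4.3.3, offset 50), a refit of it in which a local background over 10 times the array's median was set to that median, quantile normalization, median centring, the deposited table, 2 filters on dim probes, the median over a gene's probes, and keeping marked spots. Computations used Python 3.11.15.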

Additional observations from a re-analysis of the deposited data

How the results depend on the processing

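No paired analysis was possible because there was 1 array per day, and for the same reason no replicate could be left out. Of 30 differences (10 genes in 3 comparisons), 21 kept their side of the 2-fold limit under 9 alternatives (8 for Ctsk and Ctss, which the filter on all arrays leaves out), 9 changed it under at least 1, and 0 of those past the limit changed sign. The number of the 10 genes at least 2-fold lower was 1 on day 5 and 1 on day 7 against day 0, in place of 0, with normexp correction and with no filter on dim probes. The median of the 10 genes in day 5 against day 0, 0.47 as reported, was 0.93 with normexp correction, 0.79 with genes well above background on all arrays (8 genes) and with no filter, and 0.70 with the median over probes. In day 7 against day 0 it was 1.30 as reported, 1.76 with normexp correction, 1.61 with quantile normalization, 1.60 with the deposited table, 2.03 with genes well above background on all arrays and 1.56 with the median over probes.

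The planned normexp fit moved the arrays themselves. On day 0, 8 spots had a local background over 10 times the array's median, the lowest signal minus background was -60709.4 units, and the median corrected signal was 1520.06 units, beside 189 after the refit and 139 by plain subtraction. On day 7 there were 2 such spots and on day 5 there were 0. With the planned fit, all genes had 1748 higher and 9566 lower on day 5 against day 0 (3564 and 3484 as reported), 1583 and 8547 on day 7 against day 0 (3509 and 4137), and 6275 and 441 on day 7 against day 5 (1292 and 1815), with medians of -0.61, -0.56 and 0.19. The refit, chosen after seeing the data, gave 2488 and 2660, 2542 and 3043, and 852 and 1012. It kept the number of proteases past the limit at 4, 7 and 5, with medians of 0.29, 1.31 and 0.99.

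Of 107 differences past 2-fold in the 9 lysosomal lists, 17 fell under the limit with the refit, 35 with the planned fit (8 of them past it in the other direction) and 14 with the median over probes (1 reversed). Weak signal limits Ctsk and Ctss, whose difference without bounds would be 1.47 and -1.90 on day 5 against day 0.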
